A study of Mus musculus with 26 samples.

Results

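The 10 genes described here are core parts and close outputs of the circadian clock: Arntl (also named Bmal1), Clock, Npas2, Per1, Per2, Per3, Cry1, Dbp, Nr1d1 and Nr1d2. Their rows were found by matching the Ensembl identifier without its version to the gene symbol. All 10 had a row in the table of 47643 genes, and each was followed in all 26 libraries. Replicate libraries of several groups lay far apart in these genes, a library with high Arntl usually having low Dbp. Which clock genes passed the test then changed when 1 library was left out in the TCPOBOP, knockout, hepatectomy and high fat comparisons.

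The circadian clock is a transcriptional feedback loop that runs in nearly every cell. ARNTL pairs with CLOCK or NPAS2 and switches on genes through DNA elements called E-boxes, among them the Per, Cry and Nr1d genes and Dbp. PER and CRY proteins then return to repress that pair, while NR1D1 and NR1D2 (REV-ERB alpha and beta) repress Arntl and Npas2 through elements that the ROR activators also bind. DBP is an output factor of the PAR bZIP family that acts through D-boxes. In mouse liver, Arntl transcripts are known to peak near the change from dark to light and Dbp transcripts in the later part of the light phase. Feeding time, glucocorticoids and body temperature are also known to set the liver clock.

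The study measured messenger RNA of mouse liver in 5 comparisons of a treated group with its own control, and all mice were kept on a cycle of 12 h light and 12 h dark. The time of day at which tissue was taken is not given in the sources used here. In the first comparison, C57BL/6J wild-type mice aged 8 weeks with free access to food received corn oil (n = 2) or TCPOBOP (n = 2), an agonist of the nuclear receptor CAR; sample titles place the collection 36 h after the injection and the source names 6 h, and the conflict could not be settled. In the second, C57BL/6J wild-type mice (n = 3) were set against mice lacking the bile acid receptor Fxr and its target Shp (Fxr-/- Shp-/-, n = 3), all aged 12 weeks with free access to food. In the third, C3H/HeN mice aged 8 to 10 weeks with free access to food had a sham operation (n = 3, sampled at 0 h) or partial hepatectomy (n = 3, sampled at 48 h), so that surgery, the hours since surgery and possibly the clock time differ together. In the fourth, hepatocytes were isolated from C57BL/6J wild-type mice aged 16 weeks after a 10 h fast, on chow (n = 2) or on a diet with 60% fat (n = 2). In the fifth, C57BL/6J mice with floxed alleles, written fl/fl Fxr fl/fl Shp, aged 10 to 12 weeks and fasted for 8 to 10 h, received chow (n = 3) or a cholic acid diet (n = 3). Both of these groups carried the floxed alleles, and the labels name no Cre driver. Every comparison except the fourth used whole liver. The labels do not say that replicates were separate animals, so p-values measure the spread between these libraries, which may be technical.

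Each library held between 13949059 and 70367874 reads counted to genes. The targeted genes were first checked in every knockout library: Shp (Nr0b2) had 13, 25 and 39 counts there against 280, 446 and 226 in wild type. Fxr (Nr1h4) had 1421, 1198 and 1356 counts against 2846, 2546 and 1941, so its transcript was lower but present, and gene-level counts do not show which part of it is deleted. Cyp2b10, the classical CAR target, was at 3430 and 2988 CPM (gene counts scaled to a common library size, here with TMM factors) after TCPOBOP. Corn oil 2 had 9.94 CPM of it, whereas the library labelled corn oil 1 had 3706 CPM, against its label. Alas1, another gene known to be induced through CAR, followed the labels, at 374 and 401 CPM in corn oil 1 and 2 and 1332 and 1207 CPM after TCPOBOP, and Por lay at 777 and 229 CPM against 1908 and 1683 CPM. The 6 hepatocyte markers together (Alb, Ttr, Apoa1, Hnf4a, Tat and Cps1) reached 44392 to 126940 CPM. The lowest sum was that of corn oil 1, beside 92774 CPM in corn oil 2 and 51170 and 47557 CPM after TCPOBOP. The part of this difference in the clock gene values was not tested. Isolated hepatocytes still held transcripts of other cells, with endothelial markers at 42.3 to 44.1 CPM on chow and 105 to 108 CPM on the high fat diet. Of the 6 bile duct markers, Krt19, Epcam and Cftr had no count in both chow libraries and Krt7 had 1 and 0 counts. Sox9 had 273 and 397 counts there and Spp1 306 and 232 counts.

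Promoter sequence shows where the elements named above lie in the clock genes themselves. The RefSeq table for GRCm38.p6 held 13 windows for 9 of the 10 genes, Per2 being the one without an entry, each from 250 bases before to 50 bases after a transcription start. They were searched on both strands for the E-box CACGTG, its variant CACGTT, the D-box TTANGTAA, the ROR elements TAGGTCA and TGGGTCA, and the CRE TGACGTCA. Of all 32851 windows in the table, 7.15% held the E-box, 4.68% the variant, 2.32% the D-box, 2.61% and 3.98% the ROR forms in that order, and 1.79% the CRE. Among the clock genes the E-box was found in Per1 and Cry1, the variant in Cry1 and Nr1d1, the D-box in Per3, and TAGGTCA in Arntl. TGGGTCA and the CRE were in none of their windows. These stretches are printed because they hold the elements of the loop, with every match in capitals: the 250 bases before the start of Per1 (chr11:69098699-69098948, plus strand), Per3 (chr4:151044666-151044915, minus strand) and Cry1 (chr10:85185055-85185304, minus strand), and 30 bases after the start of Arntl (chr7:113207529-113207558, plus strand).
Per1: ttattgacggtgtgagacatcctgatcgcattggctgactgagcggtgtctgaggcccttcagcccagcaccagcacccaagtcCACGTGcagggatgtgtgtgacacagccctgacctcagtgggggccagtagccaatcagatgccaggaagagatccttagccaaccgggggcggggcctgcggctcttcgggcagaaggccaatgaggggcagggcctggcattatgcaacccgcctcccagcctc
Per3: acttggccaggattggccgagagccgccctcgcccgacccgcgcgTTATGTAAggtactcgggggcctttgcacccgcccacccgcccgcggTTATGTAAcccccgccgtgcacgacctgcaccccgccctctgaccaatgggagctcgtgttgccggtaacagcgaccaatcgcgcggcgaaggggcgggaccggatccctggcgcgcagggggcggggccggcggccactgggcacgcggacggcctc
Cry1: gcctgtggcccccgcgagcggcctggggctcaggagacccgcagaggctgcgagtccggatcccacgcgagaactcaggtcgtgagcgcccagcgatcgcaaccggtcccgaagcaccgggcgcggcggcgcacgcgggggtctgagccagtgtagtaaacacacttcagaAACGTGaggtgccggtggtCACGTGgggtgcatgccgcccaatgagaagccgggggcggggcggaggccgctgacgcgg
Arntl: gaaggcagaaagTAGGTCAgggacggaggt
The E-box of Per1 begins 166 bases before its start and that of Cry1 60 bases before it. In Cry1 the variant, read as AACGTG on this strand, begins 79 bases before the start. The D-boxes of Per3 begin 205 and 158 bases before its start, and the element of Arntl begins 30 bases after the start of its window 2. All positions count from the RefSeq start of the window that holds the match, which can differ from the GENCODE gene start. Per1 and Arntl each had another window without a match. A match describes the letters only and is not evidence of binding.

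In GENCODE M21 (GRCm38), Arntl lies at chr7:113207465-113314126, Npas2 at chr1:39193731-39363236, Per1 at chr11:69095217-69109960 and Dbp at chr7:45705088-45710203, all on the plus strand. Clock (chr5:76209868-76304792), Per2 (chr1:91415982-91459324), Per3 (chr4:151003652-151044665), Cry1 (chr10:85131700-85185064), Nr1d1 (chr11:98767932-98775333) and Nr1d2 (chr14:18204054-18239127) lie on the minus strand. Exons of Dbp share 539 bases (18.01% of its exonic length) with Sphk2 on the opposite strand, and exons of Nr1d1 share 263 bases (8.55%) with Thra on the opposite strand. The strand setting of the counting is not given in the sources used here, so the reads of these pairs may not be fully separated. Over the 26 libraries Sphk2 ranged from 18.02 to 64.3 CPM and Thra from 7.63 to 14.4 CPM, and their part in the values of Dbp and Nr1d1 was not tested.

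Per kilobase of exon, the median level over the 26 libraries was highest for the repressor Nr1d1, at 19.3 CPM per kb, then 14.7 for Nr1d2 and 13.1 for Dbp. Per1 followed at 5.56, Clock at 4.23 and Cry1 at 3.46 CPM per kb. Per2 had 1.80, Arntl 1.19, Per3 1.18 and Npas2 0.108 CPM per kb. Neighbours in this order overlapped widely across libraries, since Dbp alone ran from 0.0929 to 47.1 CPM per kb.

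Among the activators, Arntl ran from 0.588 CPM (20 counts) in sham library 2 to 30.2 CPM in the first corn oil library. Npas2, which can stand in for CLOCK, ran from 0.0336 CPM (1 count) in sham library 3 to 16.8 CPM, again in corn oil 1. Clock itself varied least of the 10, from 18.1 CPM in sham library 3 to 75.7 CPM in corn oil 1, a 4.18-fold range. The same library thus held the highest level of all 3 activators.

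Of the repressors, Per1 ran from 2.06 to 90.7 CPM, Per2 from 1.98 to 86.9 CPM and Per3 from 0.620 to 48.9 CPM, with the highest value of each in a high fat hepatocyte library. Cry1 kept to a narrower range of 4.60 to 40.2 CPM and was highest in hepatectomy library 3. Nr1d1 ran from 1.61 CPM in hepatectomy library 3 to 196 CPM in chow hepatocyte library 1. Nr1d2 ran from 14.1 CPM in corn oil 1 to 186 CPM in chow-fed floxed library 3. The output factor Dbp ran from 0.278 CPM (5 counts) in corn oil 1 to 141 CPM in chow hepatocyte library 2, a 507-fold span. Npas2 had a 499-fold span whose lowest value rests on 1 count, so its span and that of Dbp cannot be ranked.

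**Figure D1:**
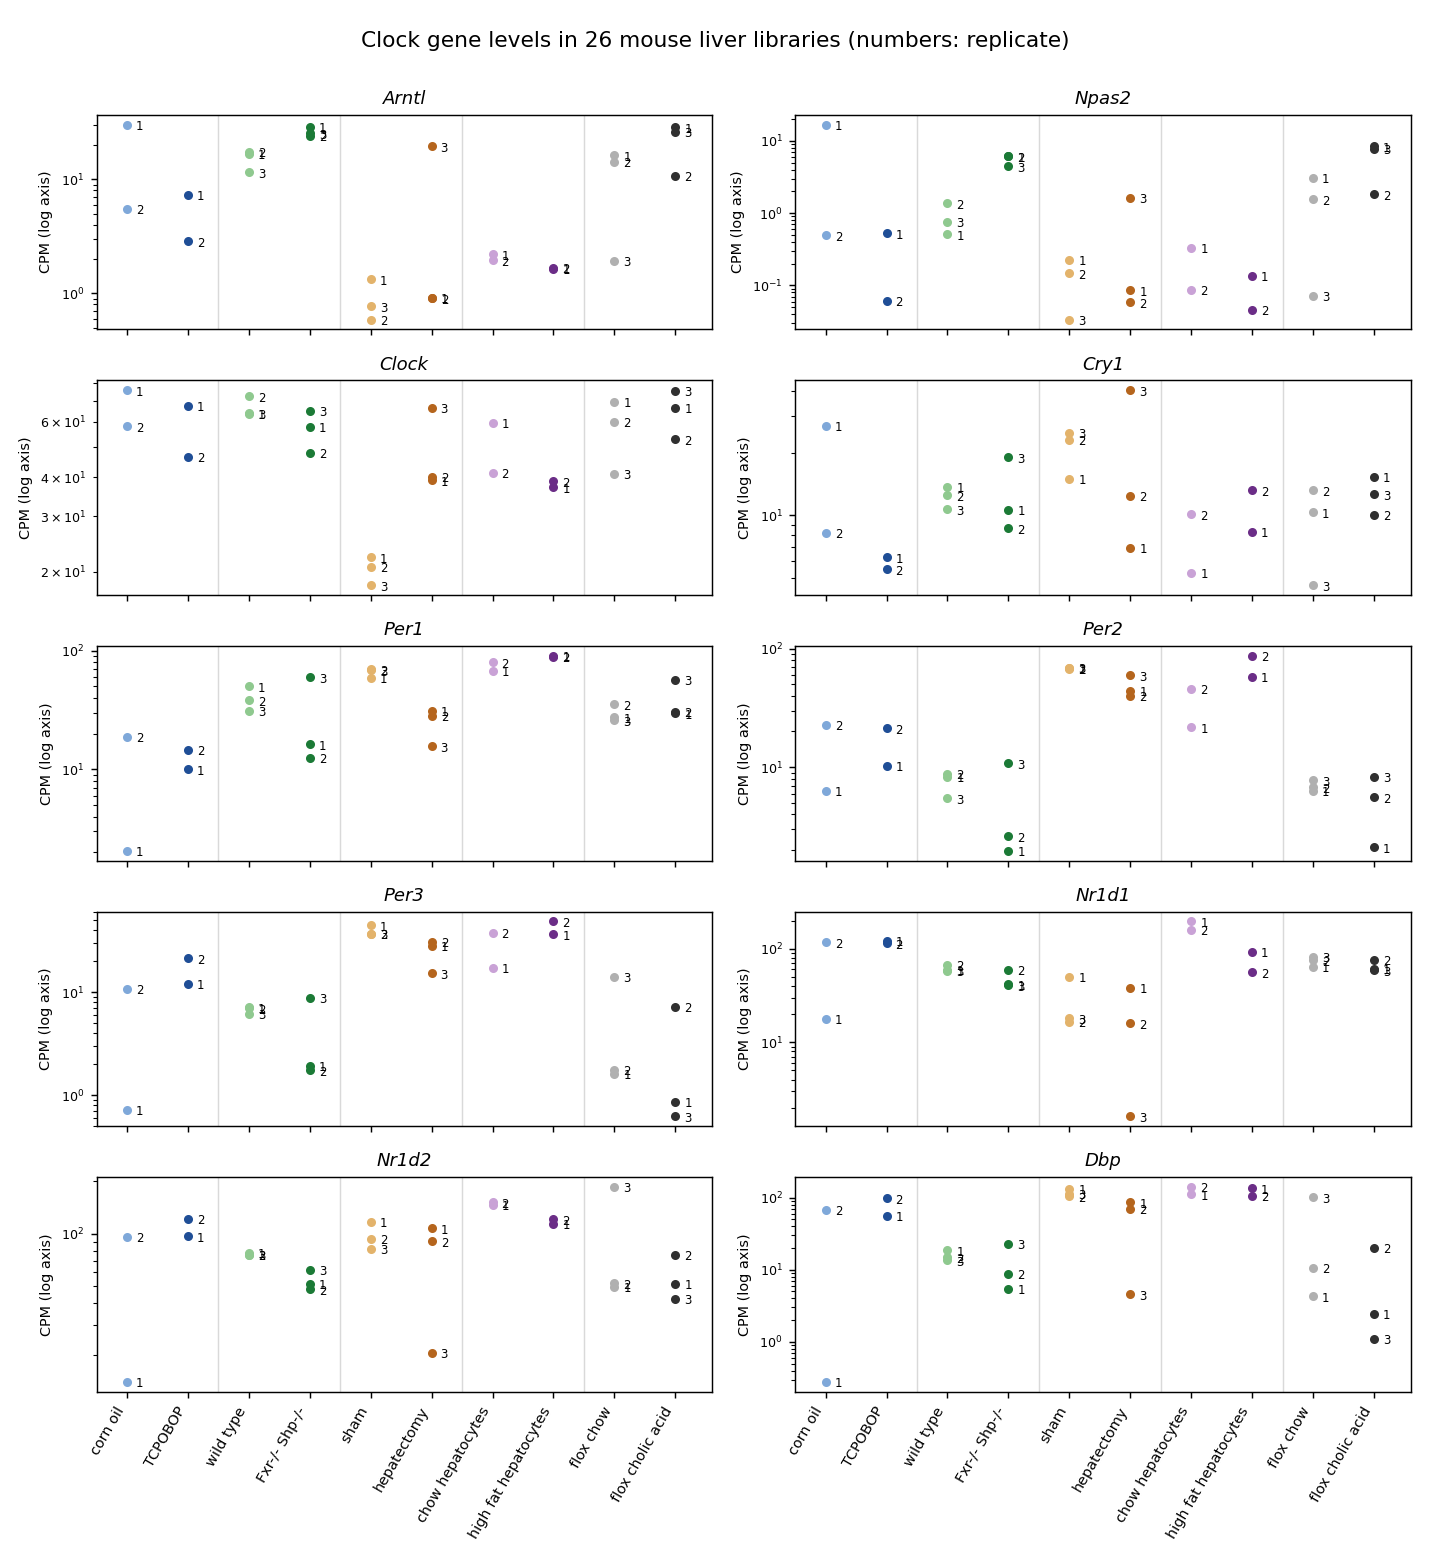
Level of each of the 10 clock genes in every library, in CPM on a log axis that differs between panels; each point is 1 library, numbered by replicate, and grey lines separate the 5 comparisons. Corn oil 1, hepatectomy 3 and chow-fed floxed 3 lie far from the rest of their groups in Dbp, at 0.278, 4.59 and 101 CPM.

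In some experiments every control library had low Arntl and high Dbp. In sham livers Arntl was at 1.32, 0.588 and 0.773 CPM and Dbp at 134, 104 and 112 CPM. Isolated hepatocytes were alike in this respect, with Arntl at 2.21 and 1.94 CPM on chow and 1.64 and 1.68 CPM on the high fat diet. Their Dbp was at 112 and 141 CPM on chow and at 135 and 106 CPM on the high fat diet. In wild-type livers, by contrast, Arntl was at 16.7, 17.4 and 11.5 CPM and Dbp at 18.7, 14.96 and 13.5 CPM. Sham and wild-type livers differ in strain and age, and isolated hepatocytes and wild-type livers in age, feeding and tissue. The time of day of collection is not given for any of them. The parts of all these in the levels cannot be told apart.

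Written as log2 of Arntl over Dbp CPM, the sham libraries were at -6.66, -7.47 and -7.18 and the wild-type libraries at -0.16, 0.22 and -0.23, so replicates of these groups lay close together. Other groups were split. The library labelled corn oil 1 was at 6.76 and corn oil 2 at -3.63. Hepatectomy libraries 1 and 2 were at -6.56 and -6.27 and library 3 at 2.09. Chow-fed floxed libraries 1 and 2 were at 1.91 and 0.43 and library 3 at -5.70. In the cholic acid group library 2 was at -0.91, apart from 3.54 and 4.58 in the others.

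**Figure D2:**
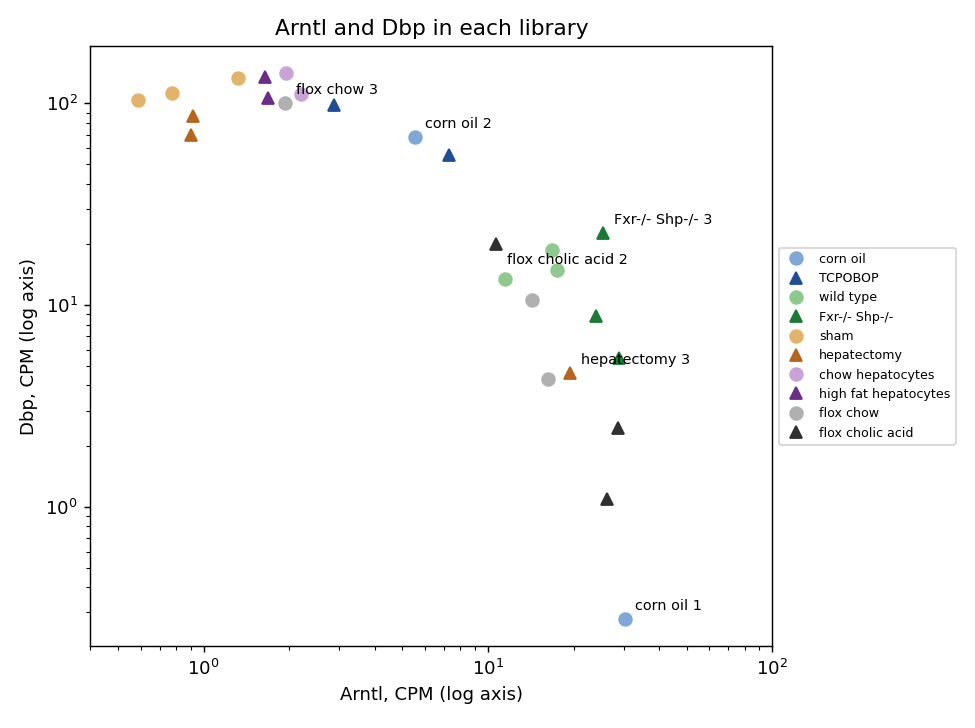
Arntl against Dbp in each library, both in CPM on log axes, with circles for control and triangles for treated groups. Libraries with high Arntl tend to have low Dbp, and the labelled libraries show how far replicates of 1 group lie apart, as with corn oil 1 (30.2 and 0.278 CPM) and corn oil 2 (5.52 and 68.2 CPM).

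The order of the other members within groups was mixed. In the library with the highest Arntl of each of the 10 groups, Clock was also highest in 8 groups and Npas2 in 8, and Cry1 in 5. In those same libraries Dbp was lowest in 7 groups, Per1 in 7, Per2 in 6, Nr1d2 in 6 and Per3 in 5, while Nr1d1 was lowest in 4 and highest in 4. Sham was an exception for Dbp, Per3, Nr1d1 and Nr1d2, which were all highest in its highest-Arntl library. The groups hold 2 or 3 libraries, and these counts are a description.

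As a description over the 26 libraries, after subtracting the mean of each library's own control group from log2(CPM + 1), the members most opposed to Arntl were Dbp (Pearson r = -0.923), Nr1d2 (r = -0.913) and Per3 (r = -0.824), and Npas2 was the most alike (r = 0.818). Among 9218 other genes with a mean of at least 5 CPM, those most like Arntl included Clpx (r = 0.923), Chka (r = 0.890), Asap2 (r = 0.868) and Dtx4 (r = 0.864). The 5 most like Dbp were Tef (r = 0.937), which encodes another PAR bZIP factor, Upp2 (r = 0.862), Stard5 (r = 0.849), Fam76a (r = 0.849) and Dedd2 (r = 0.835). All of these values share the same 26 libraries, and they were not recomputed without the libraries that stand apart.

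Livers labelled Fxr-/- Shp-/- had more Arntl and much more Npas2 than wild type, and less Nr1d2. Arntl was at 28.9, 24.1 and 25.4 CPM in the knockout libraries against 16.7, 17.4 and 11.5 CPM in wild type, with no overlap. Arntl rose by 0.79 ± 0.16 on the log2 scale (SE, n = 3 against 3; edgeR quasi-likelihood, Benjamini-Hochberg adjusted p = 0.00542). Npas2 was at 6.14, 6.16 and 4.45 CPM against 0.512, 1.36 and 0.755 CPM, all knockout libraries being above all wild-type ones. The rise of Npas2 was 2.69 ± 0.33 (adjusted p = 0.000387), from wild-type levels that rest on 10, 23 and 13 counts, so the gene came through the filter on low counts mainly by its knockout level and its call carries little weight. Nr1d2, the repressor that was lower, was at 51.4, 47.9 and 62.2 CPM against 77.5, 75.4 and 75.6 CPM. It fell by 0.49 ± 0.10 on the log2 scale (adjusted p = 0.00657), again with no overlap. In bulk liver, fewer cells of a type and less RNA per cell cannot be told apart.

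These 3 were the members that passed out of 10, against 40.4% of all 13473 genes tested in this comparison (21% higher and 19.4% lower), so the share of clock genes was not above the background. Groups did not overlap for 3 of the 10 members and for 53.6% of all genes. The median log2 fold change of the 10 members was -0.36, beside -0.0069 over all genes. The 3 calls held without each of the 6 libraries in turn, but in a single fit over all 26 libraries, where the spread of the other groups enters, 0 members passed and 32.2% of genes did.

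Among the other 7 members, the Period genes and Dbp were split within the knockout group. Per1 was at 16.3 and 12.5 CPM in knockout libraries 1 and 2 but at 59.7 CPM in library 3, with wild type at 50.1, 38.3 and 31.3 CPM. Per2 had the same shape, at 1.98, 2.62 and 10.8 CPM against 8.29, 8.78 and 5.46 CPM. Per3 was at 1.93, 1.75 and 8.77 CPM against 7.11, 6.94 and 6.16 CPM. Knockout library 3 was thus above every wild-type library in all 3 Period genes, while libraries 1 and 2 were below every one of them. Dbp stood likewise at 5.45, 8.82 and 22.8 CPM in the knockout. Its partner in overlap Sphk2 fell by 0.33 ± 0.11 on the log2 scale (adjusted p = 0.0481). None of the Period genes nor Dbp passed with all libraries, their log2 fold changes being -0.42 ± 0.51, -0.53 ± 0.55, -0.68 ± 0.53 and -0.33 ± 0.43 in that order.

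Without knockout library 3, 8 of the 10 members passed, against 43.9% of all genes. Arntl, Npas2 and Nr1d2 remained among them, at log2 fold changes of 0.82, 2.85 and -0.59. Per1 was then at -1.44 (adjusted p = 0.00048), Per2 at -1.68 (adjusted p = 0.000891), Per3 at -1.84 (adjusted p = 9.87e-05) and Dbp at -1.12 (adjusted p = 0.00311). Clock, at -0.31 (adjusted p = 0.0429), was the eighth. Nr1d1 (-0.27) and Cry1 (-0.32) did not pass. Knockout library 3 was singled out here by the values of these same genes, so this fit is a description and no test. With all libraries Clock stood at 57.9, 47.8 and 65.0 CPM in the knockout against 63.7, 72.4 and 63.9 CPM, Cry1 at 10.6, 8.65 and 19.02 CPM against 13.7, 12.5 and 10.7 CPM, and Nr1d1 at 41.5, 59.3 and 40.4 CPM against 59.4, 67.4 and 58.2 CPM. The groups overlapped in each of these, and Nr1d1 had -0.38 ± 0.15 (adjusted p = 0.0795).

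Cell type markers differed in this comparison too. The 6 hepatocyte markers summed to 59938.5 to 82715.3 CPM in the knockout and 84755.1 to 112799 CPM in wild type, with no overlap of the sums. Taken singly, Alb, Ttr and Cps1 overlapped and Apoa1, Hnf4a and Tat did not. The summed level of 6 bile duct markers was 54.9 to 128 CPM in the knockout and 26.2 to 35.8 CPM in wild type. That of 6 stellate cell markers was 376 to 437 against 176 to 287 CPM. That of 6 leukocyte markers was 14.6 to 31.4 against 5.16 to 8.48 CPM. Of the leukocyte markers only S100a8 did not overlap, at 17.6, 14.5 and 8.98 against 0.870, 0.178 and 0.116 CPM. The macrophage sums (162 to 331 against 109 to 256 CPM) and the endothelial sums (122 to 183 against 67.9 to 129 CPM) overlapped. Of the knockout libraries, library 3 had the hepatocyte, bile duct and leukocyte sums nearest to wild type, at 82715.3, 54.9 and 14.6 CPM. Its stellate sum went the other way, being the farthest from wild type at 437 CPM. The part of all these markers in the clock gene values was not tested.

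At 48 h after partial hepatectomy Clock was higher than in sham livers and Per1 and Per2 were lower. Clock was at 39.1, 40.2 and 66.6 CPM against 22.3, 20.7 and 18.1 CPM. It rose by 1.25 ± 0.21 (log2 scale, n = 3 against 3, edgeR adjusted p = 0.0032). Per1, the Period gene that also answers quickly to glucocorticoids, was at 31.3, 28.4 and 15.6 CPM against 58.9, 69.7 and 68.2 CPM. It changed by -1.39 ± 0.23 (adjusted p = 0.00325). Per2 was at 44.0, 40.0 and 59.6 CPM against 68.1, 67.8 and 69.1 CPM, a change of -0.52 ± 0.14 (adjusted p = 0.0269). None of these 3 overlapped between the groups. Clock and Per1 passed without each of the 6 libraries in turn. In the single fit over all 26 libraries Clock and Arntl passed, and Per1 and Per2 did not. Among the fits without 1 library, Per2 passed only without hepatectomy library 3. Its adjusted p was 0.0595, 0.0804 and 0.0878 without sham 1, 2 and 3 and 0.0703 and 0.0714 without hepatectomy 1 and 2. Per2 did pass by DESeq2, without a filter on low counts, and with replicate number as a block.

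The 3 called members were of 9 tested, beside 30.7% of 13753 genes (16.4% higher, 14.3% lower). Npas2 was left out by the filter, at 0.226, 0.147 and 0.0336 CPM in sham and 0.0861, 0.0584 and 1.64 CPM after hepatectomy. Groups did not overlap for 5 of the 9, with Per3 and Dbp joining the 3 called, and for 46.9% of all genes. The median over the 9 members was -0.52, beside 0.014 over all genes.

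Hepatectomy library 3 differed from libraries 1 and 2 in most members. Arntl was at 0.918 and 0.905 CPM in libraries 1 and 2, within the sham range, and at 19.5 CPM in library 3. Nr1d1 went the other way, at 38.4 and 15.9 CPM and then 1.61 CPM. Dbp was at 86.6 and 70.0 CPM and then 4.59 CPM, and Nr1d2 at 108 and 90.2 CPM and then 20.7 CPM. Cry1 was at 6.97 and 12.4 CPM in libraries 1 and 2, below all sham libraries (15.02, 23.2 and 25.1 CPM), and at 40.2 CPM, above them, in library 3. Per3 was at 28.3, 30.9 and 15.2 CPM against 44.7, 37.0 and 36.8 CPM. With all libraries Arntl had a log2 fold change of 2.99 ± 1.19 (adjusted p = 0.0934), Dbp -1.12 ± 0.76 (adjusted p = 0.304) and Per3 -0.68 ± 0.24 (adjusted p = 0.0639), so none passed. Arntl did pass without hepatectomy library 1 (3.51, adjusted p = 0.0413).

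Leaving out hepatectomy library 3 brought the count to 6 of the members, against 30.2% of all genes. Clock (0.95), Per1 (-1.14) and Per2 (-0.71) remained. Per3 (-0.42, adjusted p = 0.0289), Cry1 (-1.12, adjusted p = 0.0203) and Dbp (-0.58, adjusted p = 0.0143) joined them. Arntl was then at 0.025 (adjusted p = 0.969), so its difference with all libraries came from library 3. Hepatectomy library 3 was singled out by the values of these same genes, so this fit is a description and no test. The 6 hepatocyte markers summed to 92666.4 to 103585 CPM after hepatectomy and 123039 to 126940 CPM in sham, with no overlap of the sums. Of them Ttr overlapped, and the nearest Hnf4a libraries of the groups were both at 649.8 CPM. The part of the markers in the clock gene values was not tested. The 5 lists for other cells overlapped, for instance at 188 to 215 and 151 to 201 CPM for stellate cells.

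In hepatocytes of mice on the high fat diet both REV-ERB genes were lower. Nr1d1 was at 92.6 and 55.8 CPM against 196 and 159 CPM on chow. It changed by -1.29 ± 0.24 (log2 scale, n = 2 against 2, edgeR adjusted p = 0.0191), and Thra, its neighbour on the other strand, by 0.077 ± 0.12 (adjusted p = 0.67). Nr1d2 was at 114 and 121 CPM against 146 and 152 CPM, a change of -0.37 ± 0.08 (adjusted p = 0.0262). Both were lower in each high fat library than in each chow library. The call of Nr1d1 held without each of the 4 libraries. That of Nr1d2 was lost in each case, with adjusted p = 0.0532 and 0.0626 without chow 1 and 2 and 0.13 and 0.0634 without high fat 1 and 2. Where a group is left with 1 library, that library is assumed to vary like the other group.

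These were 2 of 9 members tested, beside 24% of 13892 genes (11.1% lower), and in a single fit over all 26 libraries 0 members passed, beside 11.6% of genes. Groups did not overlap for 6 of the 9, beside 67.6% of all genes. Npas2 was again under the filter, at 0.332 and 0.0867 CPM on chow and 0.136 and 0.0463 CPM on the high fat diet. The median of the 9 was -0.10, beside 0.0090 over all genes. Of the Period genes, Per2 was at 57.5 and 86.9 CPM against 21.7 and 45.8 CPM, a log2 fold change of 1.07 ± 0.36 that did not pass (adjusted p = 0.0827). Per1 (90.7 and 88.7 against 67.8 and 79.6 CPM) had 0.25 ± 0.10 (adjusted p = 0.11). Per3 (36.6 and 48.9 against 17.2 and 37.8 CPM) overlapped. Arntl had -0.35 ± 0.20, Clock -0.44 ± 0.17, Cry1 0.45 ± 0.35 and Dbp -0.10 ± 0.16, and none of these passed. With replicate number as a block, Per2, Per3 and Cry1 did pass (edgeR adjusted p = 0.00317, 0.0284 and 0.0412), beside 26.6% of genes. Without chow library 2 the count was 5, namely Clock, Per1, Per2, Per3 and Nr1d1, beside 18.3% of genes. Stellate cell markers summed to 40.4 to 42.7 CPM on the high fat diet and 9.89 to 16.7 CPM on chow, macrophage markers to 48.2 to 53.3 and 28.7 to 28.8 CPM, and their part was not tested.

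The cholic acid diet gave no called clock gene. In edgeR 0 of 10 members passed and 0 had an unadjusted p under 0.05, and DESeq2 also called 0, while edgeR called 4.77% of 12577 genes, with 2904 at an unadjusted p under 0.05. Dbp had the largest difference, at 2.47, 20.1 and 1.10 CPM on cholic acid against 4.30, 10.6 and 101 CPM on chow, a log2 fold change of -2.31 ± 1.29 (adjusted p = 0.324). Npas2 was at 8.42, 1.84 and 7.77 CPM against 3.06, 1.56 and 0.0718 CPM (1.93 ± 0.87, adjusted p = 0.229). Arntl was at 28.6, 10.7 and 26.2 CPM against 16.2, 14.3 and 1.94 CPM (1.01 ± 0.65, adjusted p = 0.39). Both groups were split, and every member overlapped between them, beside 31.1% of all genes that did not. The median of the 10 members was 0.0006, beside 0.0096 over all genes.

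Chow-fed floxed library 3 and cholic acid library 2 were the ones apart. In library 3 on chow, Per3 was at 14.1 CPM against 1.61 and 1.77 CPM in the other two, and Nr1d2 at 186 CPM against 49.5 and 51.8 CPM. In library 2 on cholic acid, Per3 was at 7.23 CPM against 0.857 and 0.620 CPM. Leaving out chow library 3 alone turned Dbp to 0.058, Per3 to 0.75 and Nr1d2 to 0.15, from -2.31, -1.02 and -0.77 with all libraries, and no member passed. When both libraries were left out, 3 members passed beside 11.5% of genes: Arntl at 0.83, Npas2 at 1.79 and Dbp at -2.08. The libraries left out were chosen by the values of these same genes, so this is a description and no test. In Per1 (29.8, 30.7 and 57.1 against 27.4, 35.2 and 25.9 CPM) and Per2 (2.12, 5.56 and 8.34 against 6.35, 6.79 and 7.76 CPM) these libraries were not the ones apart. Cry1 (15.3, 10.0 and 12.6 against 10.4, 13.2 and 4.60 CPM) was lowest in both. Clock had 0.18 ± 0.23 and Nr1d1 -0.18 ± 0.17. Endothelial markers summed to 116 to 167 CPM on cholic acid and 93.8 to 114 CPM on chow, and the sums of the other marker lists overlapped. The part of the markers here was not tested.

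**Figure D3:**
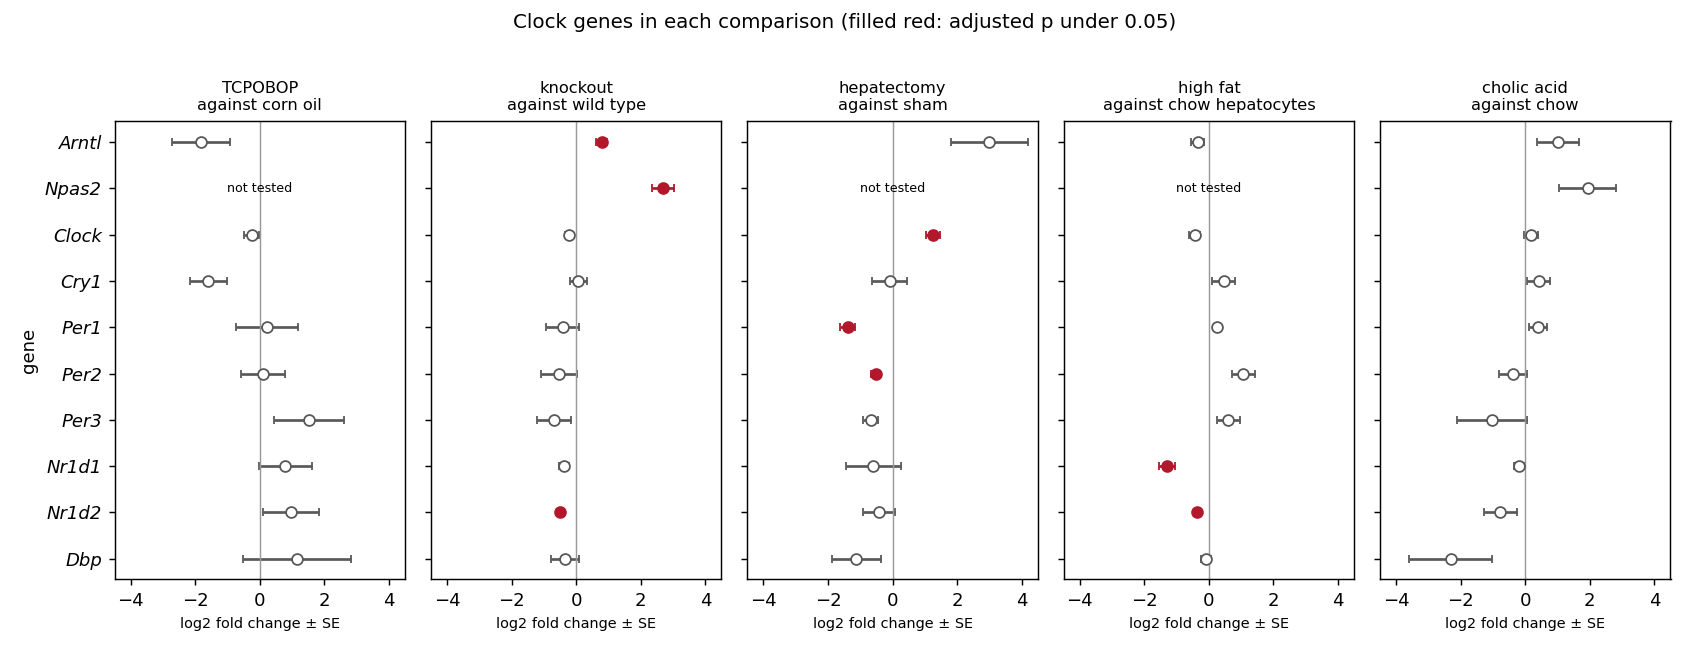
Log2 fold change (point) and its SE (bar) of each clock gene in the 5 comparisons; filled red points passed an adjusted p under 0.05 in edgeR. Npas2 was removed by the filter in 3 of them, and Arntl and Npas2 (knockout), Clock (hepatectomy) are the filled points above 0.

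TCPOBOP against corn oil also gave no called clock gene, and here the control libraries disagreed. In edgeR 0 of 9 tested members passed, as did 0% of 12785 genes (751 at an unadjusted p under 0.05, with no adjusted p below 0.345). Cry1 alone of the members had an unadjusted p under 0.05 (0.0413). DESeq2 called 109 genes and 0 members. The library labelled corn oil 1 held Dbp at 0.278 CPM and corn oil 2 at 68.2 CPM, a 245-fold gap within the group, with TCPOBOP at 55.5 and 98.6 CPM. Per3 was at 0.723 and 10.8 CPM against 12.0 and 21.3 CPM. Nr1d1 was at 17.8 and 117 CPM against 121 and 115 CPM, and Nr1d2 at 14.1 and 96.4 CPM against 96.7 and 122 CPM. Corn oil 2 thus lay near the TCPOBOP libraries in these genes, and corn oil 1 far below.

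The activators and Cry1 had the opposite order. Arntl was at 30.2 and 5.52 CPM in corn oil 1 and 2 and at 7.28 and 2.87 CPM after TCPOBOP. Npas2 was at 16.8 and 0.497 CPM against 0.524 and 0.0610 CPM, and was removed by the filter. Cry1 was at 27.1 and 8.23 CPM against 6.29 and 5.49 CPM. Per1 (2.06 and 18.9 against 10.0 and 14.7 CPM), Per2 (6.34 and 22.9 against 10.3 and 21.3 CPM) and Clock (75.7 and 58.1 against 67.5 and 46.5 CPM) overlapped. Groups did not overlap for Per3, Cry1 and Nr1d2, which is 3 of 9 beside 35.2% of all genes. The median of the 9 was 0.22, beside -0.0165 over all genes.

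The choice of corn oil library decided the outcome. Set against the library labelled corn oil 1 alone, the log2 fold change of Dbp was 8.08, that of Per3 4.51 and that of Nr1d2 2.96. Nr1d1 was then at 2.73, Per1 at 2.58, Arntl at -2.57 and Cry1 at -2.20. Npas2 had 302 counts in corn oil 1 and 9 and 1 after TCPOBOP, so it passed the filter there only through the library where it was high. Set against corn oil 2 alone, Dbp was at 0.16, Nr1d1 at -0.0034 and Arntl at -0.14. A control of 1 library has no spread of its own, so these values are a description and no test. Since the corn oil libraries differ so widely and Cyp2b10 goes against 1 label, no direction for TCPOBOP can be taken from these genes.

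**Figure D4:**
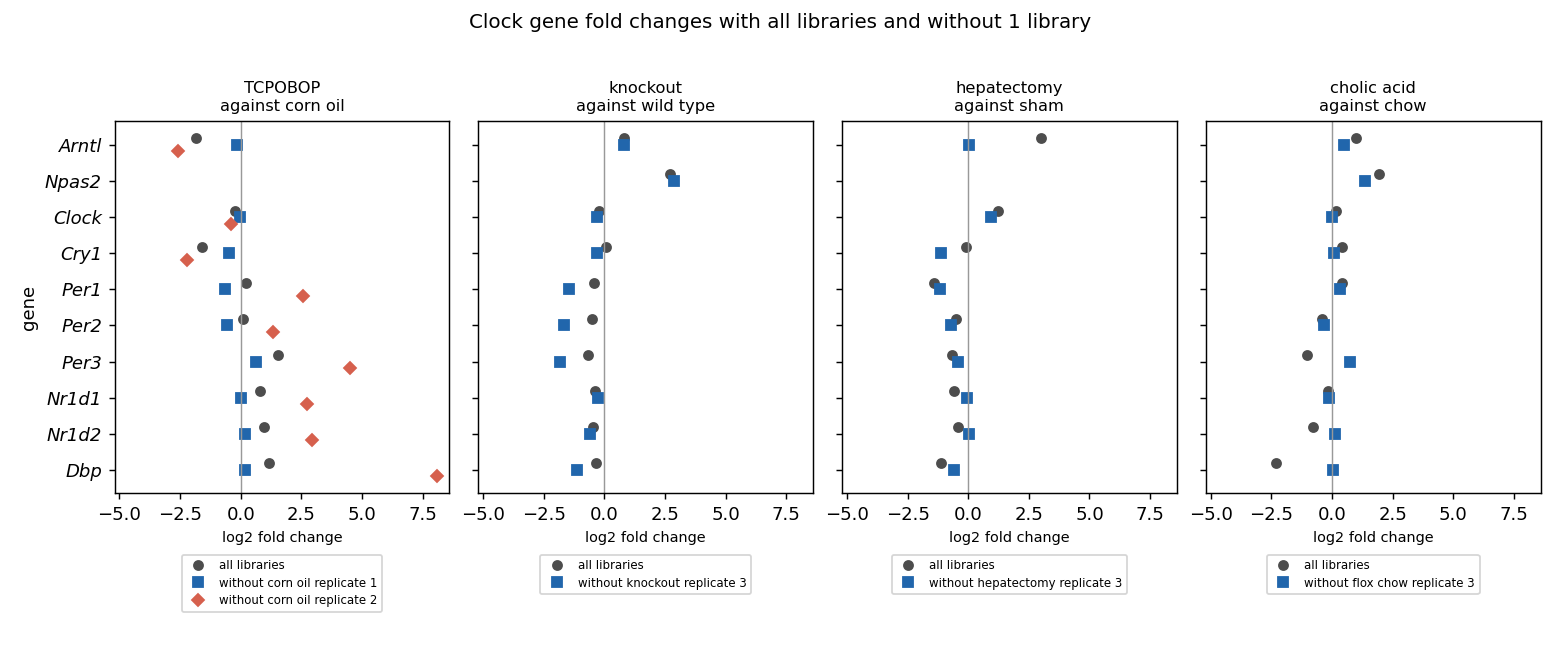
Log2 fold change of each clock gene with all libraries (grey circles) and without 1 library (squares, and diamonds for a further one) in 4 comparisons. Without corn oil 2 Dbp moves from 1.15 to 8.08, and without knockout 3 the Period genes move from between -0.68 and -0.42 to between -1.84 and -1.44.

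The differences between effects were tested for 3 pairs of experiments with separate controls. The effect on Per1 was lower after hepatectomy than under cholic acid by 1.79 on the log2 scale (difference -1.79 ± 0.39, edgeR adjusted p = 0.012), which held without each of the 12 libraries, and 13% of all genes passed this test (8.01% higher, 5.01% lower). Clock, at 1.07 ± 0.33, did not pass (adjusted p = 0.0515). Between the knockout and the high fat diet, Arntl differed by 1.15 ± 0.26 (adjusted p = 0.0142) and Npas2 by 3.87 ± 0.86 (adjusted p = 0.0126), beside 16.1% of all genes (7.98% higher, 8.11% lower). Npas2 had only 17 and 5 counts in the chow and 9 and 3 counts in the high fat hepatocytes and entered this test only through the knockout experiment, so its difference is given as a value and not as support. The difference in Arntl was lost without chow hepatocytes 1 (adjusted p = 0.0615), high fat 1 (0.0625) or high fat 2 (0.0505), and that in Npas2 without chow hepatocytes 1 (0.167) or high fat 2 (0.0529). Between the knockout and cholic acid 0 of 10 members differed in edgeR, 0 had an unadjusted p under 0.05 and DESeq2 called 0, beside 13.9% of all genes in edgeR (7.18% higher, 6.74% lower). The wide intervals, such as 1.97 ± 1.50 (SE) for Dbp, do not show that these effects were alike.

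Of 18 other clock genes, 8 of 16 tested passed in the knockout (3 higher, 5 lower, beside 21% and 19.4% of all genes). Csnk1e, a casein kinase that phosphorylates PER proteins, rose by 1.16 ± 0.12 (adjusted p = 0.000176). Usp2, a deubiquitinase with a circadian transcript, fell by 2.17 ± 0.41 on the log2 scale (adjusted p = 0.00337). Without wild-type library 2 the count was 3, beside 33.9% of all genes, and without knockout library 3 it was 12, beside 43.9%. After hepatectomy 3 of 16 passed (1 higher, 2 lower, beside 16.4% and 14.3% of all genes). Timeless, which also acts in DNA replication, was up by 3.27 ± 0.32 (edgeR adjusted p = 0.000247). Without hepatectomy library 3 the count was 9, beside 30.2% of all genes. On the high fat diet 8 of 17 passed (3 higher, 5 lower, beside 12.9% and 11.1% of all genes). Timeless rose by 1.21 ± 0.21 (adjusted p = 0.0162) and Arntl2 by 1.06 ± 0.29 (adjusted p = 0.0477), the call of Arntl2 being lost without each of the 4 libraries. Bhlhe41, which encodes the repressor DEC2, fell by 1.96 ± 0.44 on the log2 scale (adjusted p = 0.0289). The count was lower without each library in turn, which leaves 1 library in a group. Under cholic acid and after TCPOBOP 0 of 17 passed in each, with 3 and 2 at an unadjusted p under 0.05 in edgeR. DESeq2 called 1 and 1, beside 11.5% and 0.853% of all genes. Without chow-fed floxed library 3 the cholic acid count in edgeR was 2, beside 10.4%. The TCPOBOP count was higher without the library labelled corn oil 2, which leaves 1 control library.

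Of 19 liver genes known as outputs of the clock, 10 passed in the knockout (5 higher, 5 lower, beside 21% and 19.4% of all genes). Elovl3, a fatty acid elongase with a strong daily rhythm, was at 0.129, 0 and 0.612 CPM in the knockout against 141, 129 and 161 CPM, a fitted log2 fold change of -9.09 ± 0.41 (adjusted p = 1.68e-06) that rests on a group at or near 0. Noct (nocturnin) was at 3.69, 3.36 and 10.98 CPM against 51.0, 32.9 and 37.6 CPM (-2.73 ± 0.40, adjusted p = 0.000991). The cell cycle inhibitor Cdkn1a (1.48 ± 0.17, adjusted p = 0.000321) and Cyp2a5 (1.43 ± 0.18, adjusted p = 0.000491), a target of the PAR bZIP factors, rose. Tef, the gene most like Dbp, was at 45.4, 48.8 and 107 CPM in the knockout against 113, 104 and 106 CPM, with library 3 again beside wild type.

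After hepatectomy 12 of the 19 passed (4 higher, 8 lower, median -1.02, beside 16.4% and 14.3% of all genes). Without sham library 2 the count was 5, beside 18.2% of all genes. Rgs16, a regulator of G-protein signalling, was at 2.70, 1.58 and 1.23 CPM against 203, 118 and 132 CPM (-6.37 ± 0.34, adjusted p = 1.02e-05). Upp2, a uridine phosphorylase, had -1.77 ± 0.46 (adjusted p = 0.0214) and Noct -1.53 ± 0.37 (adjusted p = 0.0162), and these calls held in 3 and 4 of the 6 fits that left out a library. Cdkn1a rose by 3.10 ± 0.45 (adjusted p = 0.00178). Lonrf3 rose by 1.57 ± 0.51 (adjusted p = 0.0484), which held in 1 of those 6 fits.

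On the high fat diet 7 of the 19 output genes passed (1 higher, 6 lower, beside 12.9% and 11.1% of all genes). The count was 3 without high fat library 1, beside 8.02% of all genes, and 11 without chow library 2, beside 18.3%. Avpr1a, a vasopressin receptor, had -3.46 ± 0.22 (adjusted p = 0.00123) and Elovl3 -2.39 ± 0.29 (adjusted p = 0.00709). Noct went the other way from its change in the knockout, at 136 and 173 CPM against 63.8 and 69.1 CPM (1.19 ± 0.13, adjusted p = 0.00543); the difference between these effects was not tested for Noct. Under cholic acid 4 of the 19 passed (1 higher, 3 lower, beside 2.27% and 2.5% of all genes). Cyp7a1, the rate-limiting enzyme of bile acid synthesis, was at 1.26, 0.918 and 0.715 CPM against 110, 160 and 718 CPM (-8.42 ± 0.89, adjusted p = 0.00316), and this call held without each of the 6 libraries. Cyp2a5 rose by 2.31 ± 0.48 (adjusted p = 0.0343), and Elovl3 had -3.77 ± 0.84 (adjusted p = 0.0443) and Gys2 -1.08 ± 0.23 (adjusted p = 0.0347). The calls of Cyp2a5, Elovl3 and Gys2 held in 2, 1 and 1 of the 6 fits. Among the output genes of the TCPOBOP comparison edgeR called 0, with 6 at an unadjusted p under 0.05. DESeq2 called 3, beside 0.853% of all genes. The edgeR count was higher without the library labelled corn oil 1, which leaves 1 control library.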

How the data were processed

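The members and the gene lists were chosen with earlier results of these data known. The authors deposited 1 table of whole-number read counts per gene, with Ensembl identifiers, for all 26 libraries. Per the submitters' processing notes, bcl2fastq 2.17.1.14, Trimmomatic, STAR 2.4.2a, Picard 1.119, HTSeq and the GRCm38/mm10 build were used, with no role or order given; per the labels' protocols libraries came from a stranded TruSeq mRNA kit. The annotation is not given in the sources used here. Summary rows that name no gene held 23.0% to 48.6% of each library's reads and were left out. They held 48.1%, 48.6% and 47.6% in wild type and 32.1%, 33.6% and 32.2% in the knockout. Reads without a unique alignment were 43.4%, 44.1% and 43.2% against 26.7%, 26.9% and 25.5%. The part of this difference in the knockout comparison was not tested. Symbols matched 47224 of 47643 identifiers. A count of 3 was taken as the floor.

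Each comparison was fitted alone with edgeR 4.0.16 (limma 3.58.1, R 4.3.3): filterByExpr at its defaults (minimum count 10, total 15), TMM, quasi-likelihood F test, and Benjamini-Hochberg adjustment over all genes tested, called at an adjusted p under 0.05. Scripts were tested on simulated data. Levels are CPM with TMM factors over all libraries. Alternatives were DESeq2 1.42.0 (Wald test, or its size factors in edgeR), no filter, a replicate block, a single fit over all libraries, and leaving out each library. Named were all members, and of the other clock and output lists together the 3 called genes that rose most and the 3 that fell most per comparison; of the feeding and temperature lists 1 each way; and the 5 genes most like Arntl and Dbp. Of the genes this rule names, 2 are not reported here. The SE is the absolute log2 fold change over the square root of F.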

Additional observations from a re-analysis of the deposited data

Results flagged for a closer look

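The difference between 2 effects passed the test for 3 clock genes. Each effect is a treated group against its own control. The effect on Per1 was lower after hepatectomy than under cholic acid (log2 difference -1.79). The effects on Arntl and Npas2 were higher in the knockout than on the high fat diet, by 1.15 and 3.87. The call of Arntl was lost without chow hepatocytes 1, high fat 1 or high fat 2, and that of Npas2 without chow hepatocytes 1 or high fat 2. Npas2 had 17, 5, 9 and 3 counts in the hepatocyte libraries and entered the test only through the knockout experiment. Opposite movement of all treated libraries was seen in further pairs, and those differences were not tested. Against their own controls, all hepatectomy libraries were higher in Clock (1.25) and lower in Per1 (-1.39) and Per2 (-0.52), while both high fat libraries were lower in Clock (-0.44) and higher in Per1 (0.25) and Per2 (1.07). Per3 was at 1.52 after TCPOBOP and -0.68 after hepatectomy. Nr1d2 was at 0.96 after TCPOBOP, beside -0.49 in the knockout and -0.37 on the high fat diet. The TCPOBOP values rest on the library labelled corn oil 1. With it alone as the control Per3 was at 4.51 and Nr1d2 at 2.96, and with corn oil 2 alone they were at 0.61 and 0.16. No group was large enough to be flagged for a library lying apart, since none had more than 3 libraries.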

How the results depend on the processing

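The counts of clock genes called are given first. With DESeq2 size factors in edgeR all 8 counts were unchanged. The knockout count of 3 was 0 in the single fit over 26 libraries, beside 32.2% of all genes. After hepatectomy the count of 3 was 5 without a filter on low counts, beside 18.7%. On the high fat diet the count of 2 was 5 with the replicate block and 0 in the single fit, beside 26.6% and 11.6%. Under cholic acid it was 3 without chow-fed floxed 3 and cholic acid 2, chosen after seeing the data, beside 11.5%. For the difference of knockout and cholic acid effects it was 1 (Per1) without knockout 3 and chow-fed floxed 3, also chosen afterwards, beside 16.9%. For hepatectomy minus cholic acid the count of 1 was 2 by DESeq2, without a filter, and without hepatectomy 3 and chow-fed floxed 3. All genes passed there at 18.4%, 7.7% and 15.5% in that order. For knockout minus high fat the count of 2 was 4 without a filter, beside 10.3%. Leaving out each library in turn gave 3 to 8 for the knockout and 2 to 6 for hepatectomy, beside 28.8% to 43.9% and 18.2% to 30.2% of all genes. It gave 0 to 0 for cholic acid, beside 1.48% to 10.4%. For knockout and hepatectomy minus cholic acid it gave 0 to 1 and 1 to 2, beside 9.31% to 16.5% and 7.89% to 17%. For knockout minus high fat the count was 2 to 7 without a wild-type or knockout library, beside 11.2% to 19.7%. In the TCPOBOP and high fat comparisons leaving out a library leaves 1 in that group, and the members called changed there too.

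Signs turned for some single genes that had not been called. With the replicate block Cry1 in the knockout was at -0.0009. Without 1 library, the log2 fold changes after TCPOBOP ran from -0.51 to 0.0089 for Clock, -0.63 to 2.58 for Per1, -0.55 to 1.32 for Per2 and -0.0034 to 2.73 for Nr1d1. In the knockout they ran from -0.32 to 0.28 for Cry1 and -1.12 to 0.014 for Dbp. After hepatectomy they ran from -1.12 to 0.31 for Cry1, -1.69 to 0.091 for Nr1d1 and -0.82 to 0.016 for Nr1d2, and on the high fat diet from -0.28 to 0.066 for Dbp. Under cholic acid they ran from -0.0057 to 0.35 for Clock, -2.96 to 0.75 for Per3, -4.43 to 0.058 for Dbp and -1.08 to 0.15 for Nr1d2. Other than by leaving out libraries, the cause of these changes was not tested.

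Replicate numbers come from titles. Deviations from the group mean of same-numbered libraries correlated at -0.209 to 0.006 in the knockout pair, -0.074 to 0.12 in the hepatectomy pair and 0.089 to 0.158 in the cholic acid pair, where each library correlated best with its own number, and at 0.133 and 0.137 in the TCPOBOP and high fat pairs. The block gave 4 calls in the knockout, 4 after hepatectomy and 5 on the high fat diet, beside 35.4%, 26.6% and 26.6% of all genes. It gave 0 after TCPOBOP and 0 under cholic acid, beside 0% and 3.82%. Depth limits Npas2 most, with 1 count in its lowest library.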

Other observations

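Feeding, glucocorticoids and body temperature are known signals to the liver clock, and their responsive genes were counted beside the clock genes. Of 15 feeding and glucocorticoid genes, 11 passed in the knockout (6 higher, 5 lower) and 8 after hepatectomy (0 higher, 8 lower), beside 40.4% and 30.7% of all genes in edgeR. On the high fat diet 8 passed (3 higher, 5 lower) and under cholic acid 2 (1 higher, 1 lower), beside 24% and 4.77% of all genes. In the knockout Fasn (fatty acid synthase) rose by 2.85 ± 0.14 (adjusted p = 2.35e-06) and Pck1, a gluconeogenic enzyme, had -1.94 ± 0.16 (adjusted p = 4.08e-05). After hepatectomy Igfbp1 had the largest fall of the list, at -3.13 ± 0.63 (adjusted p = 0.00737). On the high fat diet Fkbp5, a target of the glucocorticoid receptor, had -2.58 ± 0.41 (adjusted p = 0.0123), while Sgk1, another such target, rose by 1.19 ± 0.11 (adjusted p = 0.00404). Under cholic acid Ppargc1a rose by 1.08 ± 0.18 (adjusted p = 0.0164), a call that held in 1 of the 6 fits that left out a library. The cholic acid count was 6 without chow-fed floxed library 3, beside 10.4% of all genes. It was 0 without any one of the other 5 libraries, beside 1.48% to 2.3%. After TCPOBOP edgeR called 0 of the 15, with 3 at an unadjusted p under 0.05. DESeq2 called 2 there, beside 0.853% of all genes. The edgeR count was higher without the library labelled corn oil 2, which leaves 1 control library.

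Of 7 genes that respond to body temperature, 3 passed in the knockout, 2 after hepatectomy and 2 under cholic acid, beside 40.4%, 30.7% and 4.77% of all genes. The cold-induced Cirbp rose in the knockout by 0.57 ± 0.14 (adjusted p = 0.0113) and under cholic acid by 1.03 ± 0.20 (adjusted p = 0.0261), and Rbm3, another cold-induced RNA-binding protein gene, rose after hepatectomy by 0.51 ± 0.08 (adjusted p = 0.00197). In each case the other cold-induced gene overlapped between the groups. Rbm3 was at 6.83, 9.08 and 15.3 against 13.6, 11.1 and 13.5 CPM in the knockout. Under cholic acid Rbm3 was at 42.8, 65.7 and 57.1 against 28.0, 26.6 and 54.2 CPM. Cirbp was at 10.6, 12.7 and 6.10 against 10.4, 12.3 and 12.5 CPM after hepatectomy. The heat shock genes with the largest fall were Hsph1 in the knockout (-2.14 ± 0.23, adjusted p = 0.000199), Hspa1a after hepatectomy (-2.55 ± 0.77, adjusted p = 0.0384) and Hspa8 under cholic acid (-1.02 ± 0.21, adjusted p = 0.0342). Others did not pass after hepatectomy, where Hspa8 had 0.17 (adjusted p = 0.52) and Hsp90aa1 0.63 (adjusted p = 0.158). The calls of Hspa1a held in 2 of 6 fits without a library, and those of Cirbp and Hspa8 under cholic acid in 1 of 6 each. The count under cholic acid was 4 without chow-fed floxed library 3, beside 10.4% of all genes. It was 0 without chow-fed floxed library 2 or any one of the cholic acid libraries, beside 1.48% to 2.13%. After hepatectomy the count was 3 without hepatectomy library 3, beside 30.2% of all genes. It was 1 without sham 3, hepatectomy 1 or hepatectomy 2, beside 18.3% to 27.6%. On the high fat diet and after TCPOBOP edgeR and DESeq2 called 0 of the 7, and 0 had an unadjusted p under 0.05. All genes passed there at 24% and 0% in edgeR and at 24.8% and 0.853% in DESeq2. The high fat count changed without high fat library 1, which leaves 1 library in that group.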
